A study of Rattus norvegicus with 12 samples.

Results

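The 9 genes Pdk4, Angptl4, Ucp3, Cpt1b, Acot2, Cd36, Fabp3, Lpl and Plin2 handle fatty acids as fuel in muscle, and they were selected on the lactation effect measured in these same libraries, as a set whose effect at 1 week and at 3 weeks after injury was to be compared. Because the lactation effects at both times chose the genes, their values are given as a description, with no p-value. Of the 9 genes, 8 were found by symbol among 30206 genes in the table, and all 8 passed the low-count filter that left 14599 genes tested. Cd36 was not found by symbol, so its expression was not analysed here. Opposite signs at the 2 times, positive at 1 week and negative at 3 weeks, held for 5 of the 8 measured genes (Pdk4, Angptl4, Ucp3, Cpt1b and Acot2). Fabp3 and Plin2 were below 0 at both times and Lpl was above 0 at both, so a change of sign does not describe those 3 genes.

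The libraries were bulk poly(A) RNA-seq of the pubocaudalis, a pelvic floor muscle, from 3-month-old female Sprague-Dawley rats. All rats had simulated birth injury (SBI), a balloon distension of the vagina performed on day 20 of gestation, and after delivery the pups were either taken away (non-lactating, SBI) or left with the dam (lactating, SBI + Lac). Muscle was taken 1 or 3 weeks after SBI, which gave 4 groups, named 1wk SBI and 3wk SBI for the non-lactating rats and 1wk SBI + Lac and 3wk SBI + Lac for the lactating rats. Each group had 3 libraries (replicates 1 to 3) from 6 rats. Each library pooled RNA of a pair of rats, no group was uninjured, and pup removal and the absence of lactation cannot be told apart in this design. Library totals ran from 10082734 to 75634391 counts, and every 1wk SBI library (at least 41201635) was deeper than every 1wk SBI + Lac library (at most 39844090). P-values of other genes test a difference of groups against the spread between these pools, and variation between single rats was not measured.

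Muscle burns glucose and fatty acids, and the choice between them is set largely by hormones and by fatty acids themselves. In fasting, exercise and other states of high fatty acid supply, the nuclear receptors PPAR alpha and PPAR delta, together with glucocorticoid and FoxO signalling, raise a known set of transcripts that includes Pdk4, Angptl4 and Ucp3. During lactation the mammary gland draws heavily on circulating lipid and glucose, and the partition of fuel between gland, fat and muscle changes. By role, Lpl and Angptl4 act in the capillary, where lipoprotein lipase frees fatty acids from circulating triglyceride and Angptl4 inhibits it. Fabp3 carries fatty acids inside the myofiber, Cpt1b admits them to the mitochondrion, Ucp3 is a mitochondrial inner membrane protein induced by fatty acids, Acot2 splits mitochondrial acyl-CoA, Pdk4 shuts pyruvate out of oxidation by phosphorylating pyruvate dehydrogenase, and Plin2 coats lipid droplets.

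The 250 bases before the transcription start of Ucp3, Pdk4 and Angptl4, the 3 genes with the largest effects of opposite sign, are shown 5′ to 3′ on the gene's own strand because these are the genes best known as PPAR targets. The windows came from RefSeq on GRCr8 and lie at chr1:164227660-164227909 (plus strand), chr4:34568330-34568579 (minus strand) and chr7:15258682-15258931 (minus strand). Capitals mark matches to the motifs searched.
Ucp3: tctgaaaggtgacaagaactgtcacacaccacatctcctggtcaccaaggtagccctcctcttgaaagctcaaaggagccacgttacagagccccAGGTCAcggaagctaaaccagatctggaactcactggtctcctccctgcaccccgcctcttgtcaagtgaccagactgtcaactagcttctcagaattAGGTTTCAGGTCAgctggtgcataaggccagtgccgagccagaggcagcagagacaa
Pdk4: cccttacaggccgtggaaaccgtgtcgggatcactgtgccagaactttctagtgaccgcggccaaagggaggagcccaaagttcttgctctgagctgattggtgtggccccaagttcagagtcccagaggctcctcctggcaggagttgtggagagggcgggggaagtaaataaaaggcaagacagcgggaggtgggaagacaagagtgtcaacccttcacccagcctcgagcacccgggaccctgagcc
Angptl4: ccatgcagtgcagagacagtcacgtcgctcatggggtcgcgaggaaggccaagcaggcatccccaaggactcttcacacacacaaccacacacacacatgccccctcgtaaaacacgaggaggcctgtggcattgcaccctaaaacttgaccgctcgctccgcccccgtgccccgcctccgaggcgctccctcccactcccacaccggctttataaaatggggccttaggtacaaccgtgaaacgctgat

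The motifs searched on both strands were the PPAR element (AGGTCA repeated directly with 1 base between), its single repeat AGGTCA, the FoxO motif GTAAACA, and the glucocorticoid element (GAACA and TGTTC with 3 bases between). The search covered 300 bases, the 250 before the start and the 50 that follow it, of which the 250 are printed. Windows were found for 7 of the 9 genes, Cd36 among them, in 8 windows because Plin2 had 2, and none was found for Cpt1b or Lpl. With at most 2 mismatches the PPAR element matched in Ucp3 alone, beginning at position -57 from the start, against 3.77% of all 33469 windows, and an exact element matched in none, against 0.0538%. The exact single repeat also matched in Ucp3 alone, at -155 and inside the element at -50, against 16.2% of all windows. Neither the FoxO motif (3.78% of all windows) nor the glucocorticoid element with at most 1 mismatch (1.04%) was found in the windows of these genes. These are descriptions of letters in a short window.

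Lactating muscle had more Pdk4 than non-lactating muscle at 1 week and less at 3 weeks. Pdk4 was at 57.9, 102 and 194 normalized CPM (counts scaled to library size) in 1wk SBI and at 399, 469 and 185 CPM in 1wk SBI + Lac. The highest non-lactating pool lay above the lowest lactating pool, so the groups overlapped at 1 week. At 3 weeks Pdk4 was at 534, 417 and 445 CPM in 3wk SBI and at 195, 148 and 360 CPM in 3wk SBI + Lac, where every lactating pool lay below every non-lactating pool. The fitted log2 fold change, lactating over non-lactating, was 1.58 (SE 0.50, n = 3 pools per group, 2.99-fold higher) at 1 week and -0.996 (SE 0.49, 1.99-fold lower) at 3 weeks. In these bulk samples, fewer cells of a type and less RNA per cell cannot be told apart.

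Angptl4 had the largest swing of the 8 genes, at a low level. It was at 0.79, 1.03 and 1.69 CPM in 1wk SBI and at 3.34, 5.26 and 1.86 CPM in 1wk SBI + Lac, with every lactating pool above every non-lactating pool. It was at 1.61, 2.60 and 2.83 CPM in 3wk SBI and at 0.39, 0.21 and 0.66 CPM in 3wk SBI + Lac, with every lactating pool below. The log2 fold change was 1.58 (SE 0.42, 3.00-fold higher) at 1 week and -2.80 (SE 0.51, 6.95-fold lower) at 3 weeks. The 3wk SBI + Lac values rested on 12, 13 and 6 counts, against 15, 42 and 236 in 3wk SBI, so the size of the difference is imprecise. With every library thinned to 10082734 counts, the value at 3 weeks was -1.98.

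Ucp3, too, had a higher mean with lactation at 1 week and a lower mean at 3 weeks, with a wide spread among lactating pools. It was at 15.7, 24.6 and 20.6 CPM in 1wk SBI and at 44.0, 66.7 and 20.7 CPM in 1wk SBI + Lac, where replicate 3 of the lactating group sat among the non-lactating pools. At 3 weeks it was at 54.6, 68.7 and 39.8 CPM in 3wk SBI and at 35.9, 8.00 and 9.34 CPM in 3wk SBI + Lac, with no overlap. The log2 fold change was 1.11 (SE 0.60) at 1 week and -1.58 (SE 0.62) at 3 weeks, the latter -2.67 without 3wk SBI + Lac replicate 1, the pool at 35.9 CPM. Without 1wk SBI + Lac replicate 2, the pool at 66.7 CPM, the value at 1 week was 0.67.

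**Figure D1:**
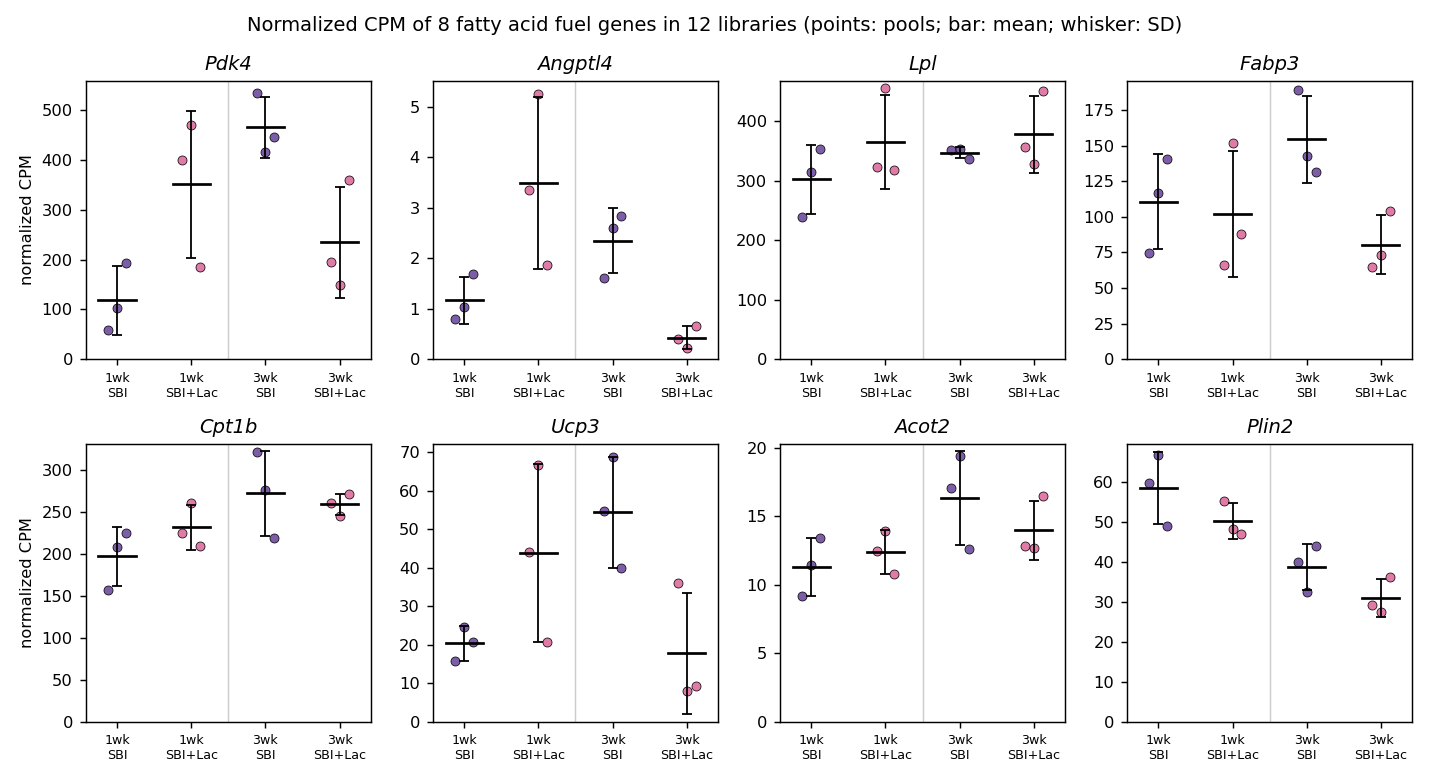
Normalized CPM (vertical axes, each from 0) of the 8 measured genes in 12 libraries, 3 pools in each of 4 groups, with points for pools, a bar for the mean and a whisker for the SD. Pdk4, Angptl4 and Ucp3 have higher means with lactation at 1 week and every lactating pool below every non-lactating pool at 3 weeks, while Lpl, Cpt1b, Acot2 and Plin2 overlap at both times.

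The genes of mitochondrial entry and acyl-CoA release had small effects. Cpt1b, the muscle form of carnitine palmitoyltransferase 1, was at 157, 209 and 225 CPM in non-lactating and 225, 261 and 209 CPM in lactating pools at 1 week. At 3 weeks it was at 321, 276 and 219.5 CPM in non-lactating and 261, 246 and 271 CPM in lactating pools, and the groups overlapped at both times. Its log2 fold change was 0.23 (SE 0.16) at 1 week and -0.07 (SE 0.16) at 3 weeks, and the value at 3 weeks was 0.06 without 3wk SBI replicate 1. Acot2 ranged from 9.16 to 19.4 CPM over the 12 libraries, with 0.13 (SE 0.18) at 1 week and -0.23 (SE 0.18) at 3 weeks, and the value at 1 week was -0.0028 without 1wk SBI replicate 1. Acot1, a near-identical neighbour of Acot2, averaged between 0.012 and 0.038 CPM per group and was not tested, and the division of reads between both genes is uncertain.

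The genes of fatty acid delivery and storage had the same sign at both times by the usual scaling. Lpl, the lipase that Angptl4 inhibits, ranged from 239 to 457 CPM, with log2 fold changes of 0.27 (SE 0.17) and 0.12 (SE 0.17), the latter -0.0061 without 3wk SBI + Lac replicate 3. Fabp3, the heart and muscle fatty acid binding protein, was at 74.7, 117 and 141 CPM in 1wk SBI and at 66.5, 152 and 88.0 CPM in 1wk SBI + Lac. At 3 weeks Fabp3 was at 189, 143 and 132 CPM in 3wk SBI and at 64.8, 73.1 and 104 CPM in 3wk SBI + Lac, so the groups overlapped at 1 week and not at 3 weeks. Its log2 fold changes were -0.12 (SE 0.32) and -0.94 (SE 0.32), and the value at 1 week was 0.11 without 1wk SBI + Lac replicate 1. Plin2 was lower at both times by small amounts, -0.23 (SE 0.14) and -0.34 (SE 0.15), and the groups overlapped at both.

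Read across the 8 genes, the median log2 fold change was 0.25 at 1 week and -0.64 at 3 weeks, against -0.0038 and -0.019 over all 14599 genes tested. A value above 0 at 1 week and below 0 at 3 weeks was found in 5 of 8 genes and in 15.0% of all genes tested. The value at 3 weeks was below that at 1 week in 8 of 8 genes, where 52.6% of all genes tested had that order. Lactating pools lay wholly above non-lactating pools at 1 week for Angptl4 alone (1 of 8), where 14.3% of all genes did so. They lay wholly below at 3 weeks for 4 of 8 (Pdk4, Angptl4, Ucp3 and Fabp3), where 10.4% of all genes did so. Angptl4 alone met both conditions, as did 0.164% of all genes. Since these contrasts chose the genes, the shares are set side by side and nothing is read from them.

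Genes were called at an edgeR adjusted p under 0.05 with an absolute log2 fold change over 1. None of the 8 genes was called at 1 week, against 37 of all genes (0.253%), and Angptl4 alone was called at 3 weeks, against 108 genes in either direction (0.740%) and 78 lower (0.534%). DESeq2 on all libraries called Angptl4 and Pdk4 at 1 week, among 188 of 13972 genes. Without 1wk SBI replicate 3, edgeR called the same 2 genes at 1 week, among 235 of 14803 genes. Without 3wk SBI replicate 3, edgeR called Angptl4 at 1 week, among 154 of 14763 genes. Fitted to only the 1-week libraries, DESeq2 called Angptl4 alone of the 8, among 332 of 14916 genes. On those libraries edgeR called none of the 8, with 110 of 14311 genes called. At 3 weeks DESeq2 on all libraries called Angptl4 alone of the 8, among 242 of 13603 genes. The edgeR call of Angptl4 at 3 weeks was lost after thinning and without 3wk SBI + Lac replicate 1 or replicate 2. For these genes a call is a description. With the adjusted p alone, 83 genes passed at 1 week (0.569%) and 371 at 3 weeks (2.54%). For the difference of both effects edgeR called none of the 8 and 1 gene in all (Sncg, 0.00685%), while 645 genes had an unadjusted p under 0.05. DESeq2 called 11 of 20000 genes for the difference, Angptl4 among them. Angptl4 was also called there by edgeR with no low-count filter (2 of 20062 genes). So it was without 1wk SBI replicate 3 (5 of 14803) and without 1wk SBI + Lac replicate 3 (2 of 14811). The differences of the effects (3 weeks minus 1 week) were -2.57 (SE 0.70) for Pdk4, -4.38 (SE 0.66) for Angptl4, -2.68 (SE 0.87) for Ucp3 and -0.83 (SE 0.45) for Fabp3, and lay between -0.36 and -0.12 for the other 4 genes.

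Across time, the sign differed between the arms for Pdk4, Angptl4, Ucp3 and Fabp3. From 1 to 3 weeks in non-lactating rats, 7 of the 8 genes had a log2 fold change above 0, with 1.98 (SE 0.50) for Pdk4, 1.06 (SE 0.42) for Angptl4 and 1.41 (SE 0.61) for Ucp3. In lactating rats 3 of the 8 did, and the same genes had -0.59 (SE 0.49), -3.32 (SE 0.51) and -1.27 (SE 0.62). Fabp3 was at 0.48 (SE 0.32) without lactation and -0.35 (SE 0.32) with it. Plin2 was lower at 3 weeks in both arms, at -0.59 (SE 0.14) and -0.71 (SE 0.14). The 1-week columns hold whole numbers and the 3-week columns hold decimals, so time and the way the values were made cannot be told apart here.

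Markers of skeletal muscle were compared in the same libraries. The 6 measured skeletal muscle markers (Acta1, Ckm, Des, Mb, Ttn and Neb) summed to 65343 to 99528 CPM in non-lactating and 97636 to 114019 CPM in lactating pools at 1 week. At 3 weeks they summed to 89529 to 120371 CPM in non-lactating and 136548 to 146848 CPM in lactating pools, with no overlap. Their mean log2 CPM differed by 0.42 at 1 week and by 0.25 at 3 weeks, lactating minus non-lactating. None of the 6 was called by edgeR at either time, and Mb was at -0.04 at 3 weeks. Expressed relative to that mean, a scaling chosen after the data were seen, Pdk4 was at 1.22 and -1.34, Angptl4 at 1.07 and -2.68, and Ucp3 at 0.55 and -2.18, so these 3 genes kept opposite signs. Cpt1b was then at -0.18 and -0.31 and Acot2 at -0.28 and -0.47, below 0 at both times, as were Fabp3, Lpl and Plin2. The count of genes with opposite signs was thus 5 of 8 by the usual scaling and 3 of 8 relative to muscle markers.

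**Figure D2:**
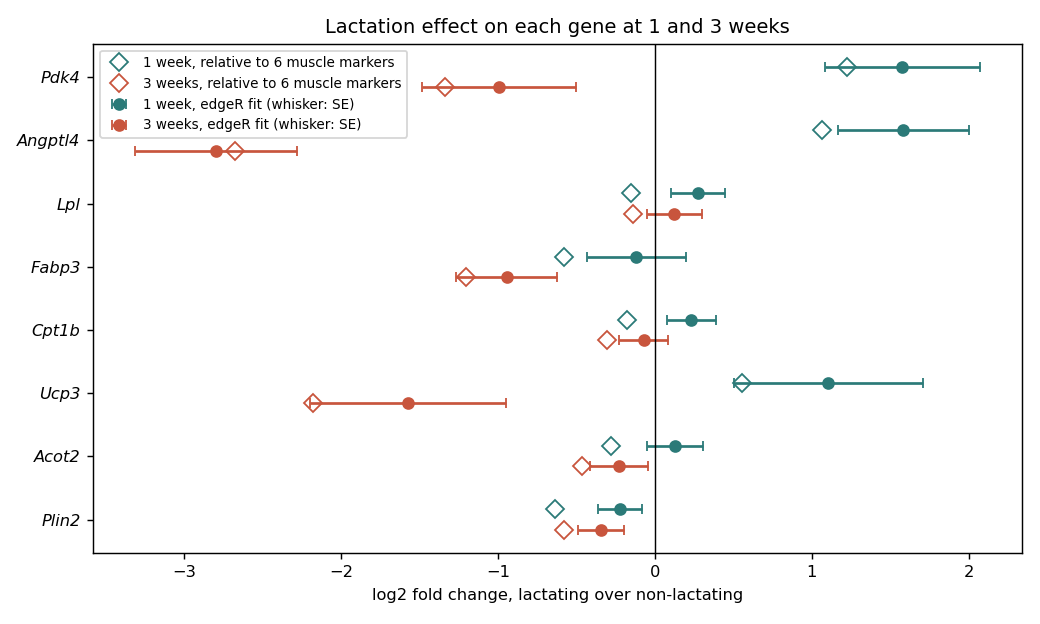
Log2 fold change of lactating over non-lactating muscle (horizontal axis) for each of the 8 genes at 1 week and at 3 weeks, with filled points for the edgeR estimate, whiskers for its SE and open diamonds for the value relative to 6 skeletal muscle markers. Pdk4, Angptl4 and Ucp3 lie on opposite sides of 0 by both scalings, and Cpt1b and Acot2 do so only by the edgeR estimate.

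Beyond the chosen genes, pathway lists of 120 tested genes were read. They hold other fuel genes, PPAR receptors and cofactors, glucocorticoid and FoxO genes (14 tested) and circadian clock genes (15 tested). Among the 22 genes of mitochondrial fatty acid import and beta-oxidation, 19 were above 0 at 1 week and 20 below 0 at 3 weeks. Both held for 18, where 15.0% of all genes tested did so, though relative to the skeletal muscle markers 2 of 22 did both. The list medians were 0.19 at 1 week and -0.32 at 3 weeks, and relative to muscle markers -0.23 and -0.56. The difference of the effects was below 0 in 21 of the 22, with a median of -0.53, where 52.6% of all genes tested were below 0. It was also below 0 in 6 of 6 skeletal muscle markers (median -0.15). So it was in 6 of 6 fast-fiber markers (median -0.18) and 6 of 7 slow-fiber markers (median -0.12). It was below 0 in 6 of 10 macrophage markers and 1 of 7 adipocyte markers. For none of the 22 was the difference called. Cpt1a, the liver-type carnitine palmitoyltransferase 1, was the only one of the list called: it fell by 1.38 on the log2 scale at 3 weeks (SE 0.17, edgeR adjusted p = 0.0018), from 13.1 ± 1.74 to 5.28 ± 1.36 CPM (SD, n = 3), and its value at 1 week was -0.28 (SE 0.16). Its difference of effects was -1.11 (SE 0.24, edgeR adjusted p = 0.50).

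The other 21 genes of the same route were not called. Slc25a20, which exchanges acylcarnitine across the inner membrane, had a log2 fold change of -0.0006 at 1 week and -0.52 at 3 weeks. Acadvl, the very-long-chain acyl-CoA dehydrogenase, was at 0.21 and -0.17, and Hadha, of the trifunctional protein, at 0.21 and -0.41. Larger values in this list, named after they were seen, were -0.77 for Decr1 and -0.57 for Acads at 3 weeks, both lower in every lactating pool (edgeR adjusted p = 0.10 and 0.099), and 0.58 for Echs1 at 1 week, higher in every lactating pool (adjusted p = 0.11). Decr1 reduces intermediates of unsaturated fatty acids, Acads acts on short chains and Echs1 hydrates enoyl-CoA. The 9 genes of peroxisomal oxidation had medians of 0.20 and -0.14 with none called.

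**Figure D3:**
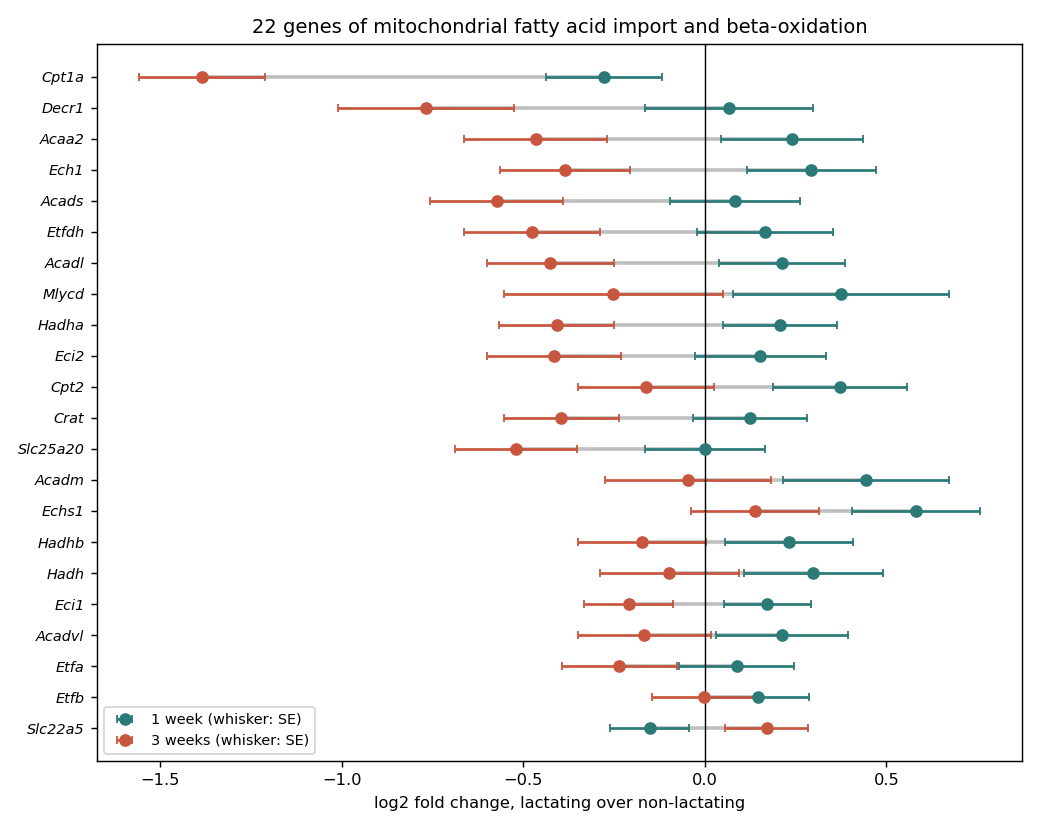
Log2 fold change of lactating over non-lactating muscle (horizontal axis) for 22 genes of mitochondrial fatty acid import and beta-oxidation at 1 week and at 3 weeks, points being edgeR estimates and whiskers SE, ordered by the difference. In 21 of 22 genes the point for 3 weeks lies left of that for 1 week (52.6% of all genes tested have that order). Cpt1a at 3 weeks (-1.38) is the only called value. Relative to muscle markers 2 of 22 genes are above 0 at 1 week and below 0 at 3 weeks.

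The other lists are given by the usual scaling, and every pathway list median below except those of the glucocorticoid and FoxO genes lay under the muscle markers' mean change of 0.42 at 1 week and 0.25 at 3 weeks. Uptake genes were near 0 at 1 week and mostly below 0 at 3 weeks, with medians of -0.10 and -0.24 over 12 genes and none called. Slc27a1, a fatty acid transport protein of the cell membrane, was at 0.11 and -0.32. Fabp4, the fatty acid binding protein of adipocytes and capillaries, was at 0.08 and -0.24. Gpihbp1, which anchors lipoprotein lipase on capillary endothelium, was at 0.04 and -0.69. Acsl1, which activates fatty acids to acyl-CoA, was at 0.08 and -0.17.

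Lipid droplet genes had medians of 0.24 and -0.04 over 13 genes, and none was called. Plin5, the droplet coat of oxidative tissue, was at 0.0004 and -0.47. Pnpla2, the first lipase of stored triglyceride, was higher in every lactating pool at both times, at 0.50 and 0.51 (edgeR adjusted p = 0.23 and 0.19). G0s2, its inhibitor, was at 0.22 and 0.81.

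Glucose and pyruvate entry genes had medians of 0.20 and 0.04 over 13 genes, with none called. Pdk2, the other main pyruvate dehydrogenase kinase of muscle, was at 0.42 and 0.34, where Pdk4 was at 1.58 and -0.996. Slc2a4, the insulin-responsive glucose transporter, was at 0.50 and 0.28, and Hk2, which phosphorylates the glucose taken up, at 0.13 and 0.16. None of the 3 passed the edgeR test.

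The receptors and cofactors through which PPAR signalling acts were mostly above 0 at both times, 13 of 15 at 1 week and 14 of 15 at 3 weeks, with medians of 0.26 and 0.18 and none that went from above to below 0. Ppara was at 0.55 and 0.43 and Ppard at 0.40 and 0.52, each higher in every lactating pool at both times (edgeR adjusted p = 0.099 and 0.16 for Ppara, 0.13 and 0.059 for Ppard). Ppargc1a, the coactivator of mitochondrial biogenesis, was at 0.52 and 0.34. Rxra, the shared partner of PPARs, rose by 0.51 at 1 week and 0.63 at 3 weeks (edgeR adjusted p = 0.041 and 0.0093), under the fold threshold. Of 7 tested transcripts in a further list of PPAR and fasting targets, medians were 0.35 and -0.19, and Ucp2, an uncoupling protein abundant in immune cells, fell by 1.07 at 3 weeks (SE 0.24, edgeR adjusted p = 0.038), a call that was lost under 10 of 22 alternatives (7 of them leaving out a library).

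Glucocorticoid and FoxO genes of fasting, a list with medians of 0.53 and 0.33 over 14 genes, were above 0 for 13 genes at 1 week and for 10 at 3 weeks. Fkbp5, a glucocorticoid-induced chaperone, averaged 6.54 ± 0.50 CPM in non-lactating and 17.4 ± 5.32 CPM in lactating pools at 1 week, and 15.2 ± 2.32 against 38.6 ± 7.41 CPM at 3 weeks (SD, n = 3). It rose by 1.41 (SE 0.20, edgeR adjusted p = 0.015) at 1 week, a call lost in 3 of the fits that left out a library, and by 1.36 (SE 0.21, adjusted p = 0.0078) at 3 weeks. Cebpd, an inflammatory and glucocorticoid-induced transcription factor, rose by 1.04 at 3 weeks (edgeR adjusted p = 0.015), a call lost in 4 alternatives. Foxo1 was at 0.22 and 0.54. Klf15, a glucocorticoid-induced regulator of muscle lipid use, was at 0.77 (SE 0.20, edgeR adjusted p = 0.074) and -0.05 (SE 0.20).

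**Figure D4:**
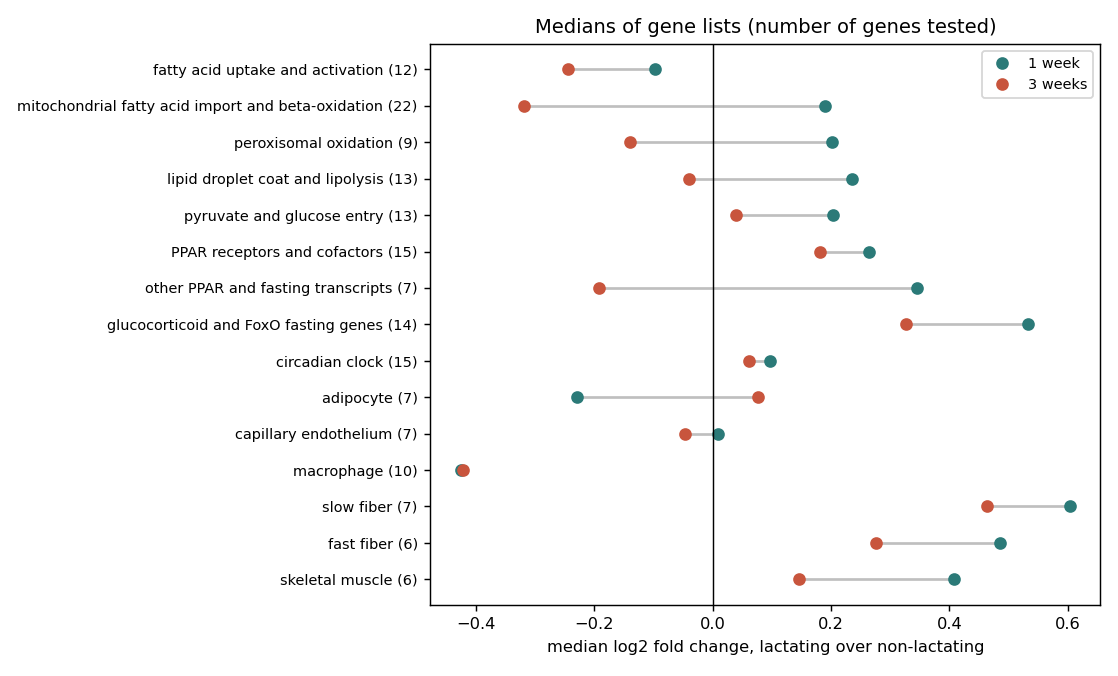
Median log2 fold change of lactating over non-lactating muscle (horizontal axis) at 1 week and at 3 weeks for 9 pathway lists and 6 marker lists, with the number of genes tested in brackets. The beta-oxidation median goes from 0.19 to -0.32 (relative to muscle markers, from -0.23 to -0.56), while the glucocorticoid and FoxO median stays above 0 (0.53 and 0.33).

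Other cell types that express some of these genes were read in the same libraries. Summed over 9 adipocyte markers, levels were 45.9 to 59.95 CPM at 1 week without lactation and 37.1 to 46.8 with it. At 3 weeks the sums were 32.3 to 55.5 CPM without lactation and 26.6 to 61.8 with it. Cfd made up most of these sums, with group means of 30.6 to 37.5 CPM. Adipoq, the first marker listed, averaged 1.58 to 4.66 CPM, with log2 fold changes of -0.79 and -0.08. At 3 weeks the 7 tested markers ran from -1.08 (Aqp7) to 1.98 (Retn), 4 above 0 and 3 below. None of the 7 was called. Of 3 brown adipocyte markers Elovl3 was at 0 in every library and Ucp1 averaged at most 0.017 CPM. Cidea, the remaining marker, was expressed, and its group means ran from 2.77 to 5.03 CPM. Its log2 fold changes were -0.44 (SE 0.23) and -0.40 (SE 0.26), and neither was called. The 7 capillary markers, led by Pecam1 at -0.06 and -0.09, had medians of 0.01 and -0.05, with sums of 260.2 to 351 CPM over the 12 libraries. Milk gene sums (8 markers, led by Csn1s1) were at most 0.034 CPM in non-lactating libraries, 0.82 to 3.11 in 1wk SBI + Lac and 0.33 to 39.5 in 3wk SBI + Lac. The 4 erythroid markers were summed at 242 to 414 CPM in non-lactating and 556 to 779.8 CPM in lactating pools at 1 week, and at 97.3 to 183 against 132 to 242 CPM at 3 weeks. The 10 macrophage markers had medians of -0.43 and -0.42, and Cd68 fell by 1.08 at 3 weeks (edgeR adjusted p = 0.015), a call lost in 3 fits that each left out a library, namely 3wk SBI replicate 3 (-0.80), 3wk SBI + Lac replicate 1 (-0.97) and 3wk SBI + Lac replicate 3 (-1.03).

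Markers of fiber type were read in the same way. The 7 slow-fiber markers, led by Myh7, were all above 0 at both times, with medians of 0.60 and 0.46. Lactating pools lay wholly above non-lactating pools for 7 of 7 at 1 week, where 14.3% of all genes tested did so. At 3 weeks they did so for 1 of 7, against 1732 of all 14599 genes tested. Their sums were 4489.5 to 9195 CPM in non-lactating and 10183 to 12885 CPM in lactating pools at 1 week, and 8197 to 13745 against 12826 to 17610.5 CPM at 3 weeks. The 6 measured fast-fiber markers had medians of 0.48 and 0.28, and lactating pools lay wholly above for 2 of 6 at each time. For the 6 skeletal muscle markers they did so for 3 of 6 at 1 week and 2 of 6 at 3 weeks. None of the slow or fast markers was called. The part of fiber type, of muscle content and of the other cell types in the effects on the 8 genes was not tested. For depth, thinning every library to 10082734 counts gave 1.58 and -1.04 for Pdk4, 1.34 and -1.98 for Angptl4 and 1.09 and -1.69 for Ucp3.

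The genes also moved together among pools of the same group, a measure that leaves out the differences between groups on which they were chosen. After each gene's group mean was subtracted from its log2 CPM, the 28 pairs of the 8 genes had a median Pearson r of 0.48 over the 12 libraries, from -0.24 to 0.90, and 24 pairs were above 0. The mean over these pairs was 0.44, against 0.0015 over all pairs of genes tested. Scaling of the libraries keeps the mean over all pairs near 0. Other sets of muscle genes were not compared, so the values do not show that these 8 genes vary together more than those. The closest pairs were Fabp3 with Lpl (0.90), Pdk4 with Lpl (0.86), Cpt1b with Acot2 (0.84) and Pdk4 with Angptl4 (0.83). Plin2 stood apart, with values from -0.24 to 0.14. These are descriptions over 12 libraries, and all genes of a library share its depth, muscle content and normalization.

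Several pools deviated the same way for most genes. 1wk SBI + Lac replicate 3 and 3wk SBI + Lac replicate 2 were below their group means for 8 of 8 genes. 1wk SBI replicate 1 was below for 7 of 8 genes, with -0.85 for Pdk4, and 1wk SBI + Lac replicate 2 was above for 7 of 8, by 0.76 for Ucp3. The median r was 0.32 without 1wk SBI + Lac replicate 2 and 0.67 without 3wk SBI replicate 1, the lowest and highest values when 1 library was left out. In 3wk SBI + Lac, replicate 3 was above for 7 of 8 genes while its Ucp3 was at -0.57, and replicate 1 had the highest Ucp3 deviation of all libraries (1.36). Slow-fiber markers varied with several of the genes within groups, with r = 0.95 for Cpt1b, 0.82 for Acot2, 0.82 for Fabp3, 0.77 for Lpl and 0.75 for Pdk4, and less with Angptl4 (0.39), Ucp3 (0.24) and Plin2 (-0.07). Macrophage markers varied the other way with some of the same genes, with r = -0.82 for Acot2, -0.76 for Cpt1b and -0.52 for Ucp3. With the skeletal muscle markers r was 0.75 for Cpt1b, 0.73 for Acot2, 0.52 for Pdk4, 0.40 for Fabp3 and 0.36 for Lpl. It was 0.24 for Ucp3, 0.17 for Angptl4 and -0.57 for Plin2. With the log2 of library depth r lay between -0.73 and -0.12.

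**Figure D5:**
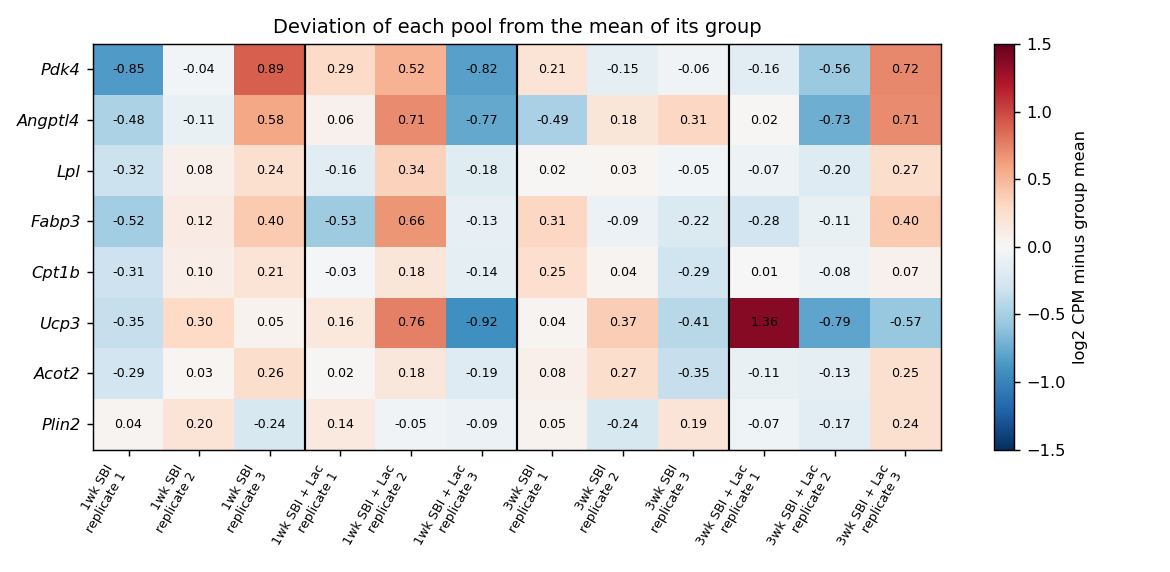
Deviation of each pool's log2 CPM from the mean of its group (colour and printed value) for 8 genes (rows) in 12 libraries (columns, 3 per group). 1wk SBI replicate 1 is low and 1wk SBI + Lac replicate 2 is high for most genes, and Ucp3 in 3wk SBI + Lac replicate 1 has the highest value, 1.36.

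Genes whose pattern was most like that of the set were ranked by Pearson r with the mean z-scored log2 CPM of the 8 genes over the 12 libraries. The 5 highest were Acadl (0.93), the long-chain acyl-CoA dehydrogenase, Slc25a42 (0.90), a mitochondrial coenzyme A carrier, Etfdh (0.88), which passes electrons from beta-oxidation to the respiratory chain, Apobec2 (0.87), a muscle-expressed member of the cytidine deaminase family, and Zfp280b (0.85), a zinc finger protein. Their lactation effects were 0.21 and -0.43 for Acadl, 0.30 and -0.33 for Slc25a42, 0.17 and -0.48 for Etfdh, 0.35 and -0.69 for Apobec2 and 0.15 and -0.06 for Zfp280b at 1 and 3 weeks. These genes were picked for the likeness, so their values are a description.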

How the data were processed

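Poly(A) RNA of 12 pools of pubocaudalis muscle was sequenced on stranded libraries, and the authors deposited 1 table of values per gene. The authors' 1-week columns hold whole-number counts. The 3-week columns deposited beside them hold estimated counts, in which 26.6% to 44.0% of values per library have decimals, and these were rounded before testing, although whole counts had been planned for. The submitters' processing notes name Salmon, and its version, the genome build and the annotation were not given in the sources used here. Of 30206 genes, 4319 have no symbol and were kept in the fit.

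Groups came from the sample titles. edgeR 4.0.16 (limma 3.58.1, R 4.3.3) was fitted to all 12 libraries with TMM scaling, filterByExpr and a robust quasi-likelihood test on group means, with contrasts for lactation at 1 week, at 3 weeks and for their difference, and Benjamini-Hochberg adjustment over 14599 genes. Totals of 10082734 to 75634391 counts set the precision of low genes such as Angptl4. Values per library are CPM on TMM-scaled sizes, and log2 CPM used a prior count of 2. No group held a pair of copied libraries. The scripts were tested on simulated data. DESeq2 1.42.0, other scalings and filters, thinning, a replicate block and each library left out were alternatives.

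The genes and the pathway and marker lists were chosen with earlier results of these data known. Named from the lists were a list of genes of known role, up to 3 called genes per pathway list, the first gene of each marker list and the 5 genes of highest correlation with the set. Some genes of the list of known role are not reported here. Cldn5, Myh1, Mylpf, Hba-a2 and Hbb-b1 were not matched and not used here. The symbol Arntl was not matched either, and that gene was read under its other symbol, Bmal1.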

Additional observations from a re-analysis of the deposited data

Results flagged for a closer look

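Angptl4 was singled out because every lactating pool lay above every non-lactating pool at 1 week and below it at 3 weeks. The difference of both effects was -4.38 on the log2 scale. The gene was chosen on these effects, so no p-value is given for the difference. The edgeR fit to all libraries with the low-count filter did not call it. DESeq2 called it, as did edgeR with no low-count filter, without 1wk SBI replicate 3 or without 1wk SBI + Lac replicate 3. The 3wk SBI + Lac pools held 6 to 13 counts of Angptl4.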

How the results depend on the processing

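Pdk4, Angptl4 and Ucp3 kept their sign at both times under every alternative run (Angptl4 has no value with at least 10 counts in every library, which removed it). Signs changed for Cpt1b (1 alternative at each time), Acot2 (2 at 1 week), Fabp3 (2 at 1 week) and Lpl (1 at 1 week, 2 at 3 weeks). Genes called at 1 week (37) became 22 with at least 10 counts in every library, 188 by DESeq2 on all libraries, 110 by edgeR and 332 by DESeq2 on the libraries of that time point. At 3 weeks (108) they became 242 and 175 by DESeq2 on all libraries and on that time point, and 62 after thinning. For the difference (1) they became 2 with no low-count filter, 11 by DESeq2 and 2 after thinning. Pathway genes called at 1 week (1, Fkbp5 of the glucocorticoid and FoxO list) became 2 by both DESeq2 fits and 3 after thinning. The called difference (0) became 1 by DESeq2. Relative to skeletal muscle markers, an alternative added after seeing the data, genes above 0 at 1 week and below 0 at 3 weeks went from 18 to 2 in beta-oxidation and from 5 to 3 among the 8 genes. Genes with a PPAR element (1) became 0 with at most 1 mismatch, where 0.439% of all windows matched. They became 3 with at most 3 mismatches, where 24.9% of all windows matched. The cause of these changes was not tested.

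Leaving out 1 library gave 2 to 235 genes called at 1 week (2 without 1wk SBI + Lac replicate 1, 235 without 1wk SBI replicate 3), 22 to 157 at 3 weeks (22 without 3wk SBI + Lac replicate 1) and 1 to 5 for the difference. It gave 0 to 4 pathway genes called at 1 week (4 without 1wk SBI replicate 3), 2 to 4 at 3 weeks (2 without 3wk SBI + Lac replicate 1) and 0 for the difference. Beta-oxidation genes with opposite signs were 13 to 20, chosen genes 4 to 6, and the median within-group r 0.32 to 0.67. Cpt1a at 3 weeks stayed called in all 22 alternatives (highest adjusted p = 0.025, edgeR or DESeq2).

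The sample titles number the rats within each group and name no pairing across groups. Same-numbered libraries deviated apart at both times (correlations from -0.23 to -0.05). Deviations within a group of 3 libraries sum to 0, so these correlations cannot decide whether same-numbered libraries shared a batch. With a replicate block, 8 genes were called at 1 week, 64 at 3 weeks and 2 for the difference, against 1, 3 and 0 in the pathway lists.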

Other observations

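Circadian clock genes, many of which are coupled to fasting and glucocorticoid signals, were read as a list of 15 tested genes. Their medians were 0.10 at 1 week and 0.06 at 3 weeks, against -0.0038 and -0.019 over all genes. Dbp, an output gene of the clock, was at -0.09 (SE 0.35) and -0.28 (SE 0.35), and Per1, which glucocorticoids also induce, at 0.34 (SE 0.28) and 0.56 (SE 0.28). Per2 rose by 0.75 at 3 weeks (edgeR adjusted p = 0.045), under the fold threshold. Npas2 and Nr1d1, an activator and a repressor of the clock, were at -0.97 (SE 0.35) and -0.80 (SE 0.30) at 3 weeks, lower in every lactating pool (edgeR adjusted p = 0.14 and 0.16). Time of day at tissue collection was not given in the sources used here.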
